A study of Mus musculus with 54 samples.

Results

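The genes described here are 4 G1 cyclins (Ccnd1, Ccnd2, Ccnd3 and Ccne1), their kinase partner Cdk4 and the 3 CIP/KIP inhibitors (Cdkn1a, Cdkn1b and Cdkn1c), followed through mouse mammary gland development. They were chosen by name, and every probe set annotated to exactly 1 of these 8 symbols was taken, which gave 12 of the 12488 probe sets of the array. Each of Ccnd1, Cdk4, Cdkn1a and Cdkn1b had 2 probe sets and the other genes had 1. For a gene with 2 probe sets, the brighter over all arrays is given first. Of the 12 probe sets, 10 passed the filter on dim signals (every array of some time point above 22.8) and were tested. The 2 of Cdkn1b did not pass and are given as values only.

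The study measured total RNA from the 4th (inguinal) gland, with the lymph node removed, on 1 Affymetrix array for each of 54 mice, 3 at each of 18 time points. The virgin mice were 6, 10 and 12 weeks old. Mice mated at 12 weeks of age, with the morning of the plug counted as day 0.5, gave the pregnancy days 1, 2, 3, 8.5, 12.5, 14.5 and 17.5 and the lactation days 1, 3 and 7, and involution days 1, 2, 3, 4 and 20 followed removal of the pups after 7 days of lactation. The labels give no genotype, strain or treatment beyond this, and each array is 1 gland of 1 animal, so p-values describe the spread between mice.

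D-type cyclins bind and activate CDK4 and its close relative CDK6 when growth signals reach a cell, and the active kinases phosphorylate the retinoblastoma protein, which releases E2F factors. Cyclin E then activates CDK2, which drives entry into S phase. The CIP/KIP proteins p21 (Cdkn1a), p27 (Cdkn1b) and p57 (Cdkn1c) bind these cyclin and kinase complexes and inhibit CDK2, while INK4 proteins bind CDK4 and CDK6 alone. In the mammary gland, cyclin D1 is known to be required for the alveolar growth of pregnancy, and weaning ends milk secretion and starts the removal of that epithelium.

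RefSeq promoter windows, which run from 250 bases before to 50 bases after an annotated start (build GRCm38.p6), were given for 5 of the 8 genes. The 250 upstream bases are printed for Cdk4 and Cdkn1a, the genes whose 2 probe sets were both called across weaning (below, "called" means an adjusted p under 0.05). The Cdk4 stretch is chr10:127063285-127063534 on the plus strand, and its capitals mark the E-box CACGTG, the palindrome that MYC and related factors bind. Cdkn1a has 2 annotated starts on the plus strand, at the ends of chr17:29090729-29090978 and chr17:29093519-29093768. Capitals in the upstream stretch of Cdkn1a mark a match to the p53 pair of decamers, and capitals in the downstream stretch mark TATAA.
Cdk4: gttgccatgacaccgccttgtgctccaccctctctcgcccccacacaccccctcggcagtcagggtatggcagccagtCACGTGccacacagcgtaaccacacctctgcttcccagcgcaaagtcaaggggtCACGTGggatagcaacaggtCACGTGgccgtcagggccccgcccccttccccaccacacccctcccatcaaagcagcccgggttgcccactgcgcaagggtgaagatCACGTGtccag
Cdkn1a upstream start: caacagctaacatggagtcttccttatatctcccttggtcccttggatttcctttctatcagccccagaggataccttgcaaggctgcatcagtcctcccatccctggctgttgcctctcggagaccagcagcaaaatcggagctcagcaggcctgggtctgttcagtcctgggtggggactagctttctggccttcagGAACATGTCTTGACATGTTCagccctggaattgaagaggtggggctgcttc
Cdkn1a downstream start: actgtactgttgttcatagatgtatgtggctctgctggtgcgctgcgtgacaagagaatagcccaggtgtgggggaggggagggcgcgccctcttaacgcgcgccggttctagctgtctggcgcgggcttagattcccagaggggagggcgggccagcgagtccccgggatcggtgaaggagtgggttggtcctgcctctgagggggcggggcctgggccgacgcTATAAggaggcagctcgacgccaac

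The 4 E-boxes of Cdk4 begin 172, 118, 98 and 11 bases before the start. Of 32851 promoter windows of the same length, 7.15% held at least 1 CACGTG and 8 windows, or 0.0244%, held at least 4. No window of the other 4 genes held this motif. The p53 pair, searched as 2 adjoining decamers without a mismatch, was found in 3 windows and in none of these genes. With at most 1 mismatch outside the core of each decamer, a setting chosen after the sequence was seen, 18 windows (0.0548%) matched, among them the upstream window of Cdkn1a, where the match begins 51 bases before the start and carries 1 mismatch. TATAA, on either strand, was in 24.9% of the windows and begins 25 bases before the downstream start of Cdkn1a. The upstream Cdkn1a window also holds it once, on the other strand. These matches describe the letters of the windows and were not read as bound sites.

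The arrays had median signals between 31.75 and 44.55, and signals of the same time point correlated with r between 0.8745 and 0.975 on the log2 scale. In 37 of 54 cases the closest array was one of the same time point. The probe set of Arl2bp split the arrays into 25 with a signal of 410.6 to 804 and 29 with a signal of 63.2 to 108.8. All arrays up to pregnancy day 3 were in the high set, and all arrays of pregnancy days 12.5 and 14.5, lactation day 7 and involution days 1, 2, 4 and 20 were in the low set. The comparisons of pregnancy day 14.5 and involution day 20 with 12-week virgins therefore coincide with this split. The comparisons of involution days 1 and 4 with lactation day 7 lie within its low set. With Arl2bp and Glo1 as covariates, calls over all probe sets went from 1527 to 257 at pregnancy day 14.5 against 12-week virgins. The median SE there went from 0.305 to 0.483. At pregnancy day 3 the calls went from 366 to 50. At pregnancy day 14.5 this setting cannot separate stage from split, so a call lost in it is not particular to a gene. Basal cytokeratins Krt5 and Krt14 were under the filter on these arrays, while the 6 milk protein genes and the 6 luminal markers were all measured.

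Over the 18 time points all 10 tested probe sets were called by the limma F test, in a table where 88.1% of 8640 probe sets were called. The smallest adjusted p values belonged to Cdkn1c (2.9e-20), Ccnd1 (5.3e-16) and Cdkn1a (3e-11 and 3.6e-11). The largest, 0.037, belonged to the dim second Ccnd1 probe set. That last call ended with quantile normalization (adjusted p = 0.0572), without the filter (0.0777), with Arl2bp and Glo1 as covariates (0.065) and without any 1 of 14 arrays. The Ccnd2 call also ended with Arl2bp and Glo1 (0.0902). When the time points were put in order of mean level, most neighbours could not be told apart by their 3 arrays. Of 17 neighbouring pairs, the ranges did not overlap in 5 for Cdkn1c, in 2 each for the brighter probe sets of Ccnd1 and Cdk4 and for both probe sets of Cdkn1a, in 1 for Ccnd3 and in 0 for Ccnd2 and Ccne1.

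**Figure D1:**
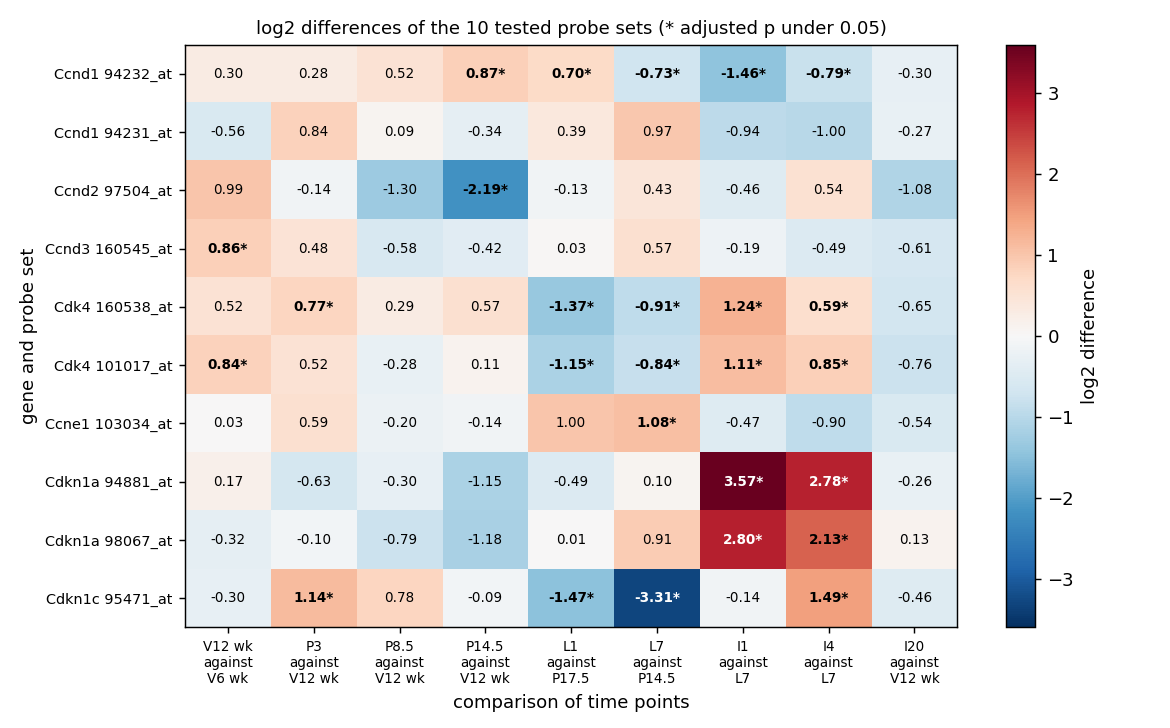
Log2 differences of the 10 tested probe sets (vertical axis) in 9 comparisons of time points (horizontal axis, each named with the stage it is set against); red is higher and blue is lower in the stage named first, and a star marks an adjusted p under 0.05. The strongest colours are Cdkn1a at involution day 1 (3.57 and 2.80) and Cdkn1c at lactation day 7 (-3.31).

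Cyclin D1 was high through mid pregnancy and early lactation and lowest in the days after weaning. The brighter Ccnd1 probe set had signals of 194, 219.3 and 192 in 12-week virgins, 328.4, 412.8 and 435.5 at pregnancy day 12.5, and 459.1, 395.1 and 417.2 at lactation day 3, the highest mean of the series. At involution day 2, the lowest, the signals were 39.7, 31 and 51.7. The 9 arrays of involution days 1 to 3 lay between 31 and 88.2, under the lowest of the 45 other arrays.

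At pregnancy day 14.5 Ccnd1 had 419.9, 293.8 and 402.5, against 194, 219.3 and 192 in 12-week virgins, and the ranges did not overlap. The log2 difference was 0.87 ± 0.26 (SE, n = 3 each, limma adjusted p = 0.016). The call ended without any 1 of 4 of these arrays (12-week virgin A or C, pregnancy day 14.5 A or C, adjusted p up to 0.0765). It also ended with Arl2bp and Glo1 as covariates, where the difference was 0.63 (adjusted p = 0.485). Pregnancy day 17.5 was lower and more scattered, at 172.2, 163.8 and 296.6. Against it, lactation day 1 was higher at 356.6, 446.9 and 225.5, with overlapping ranges (0.70 ± 0.26, adjusted p = 0.045), and this call ended without any 1 of 4 arrays (pregnancy day 17.5 A or B, lactation day 1 A or B) and in 7 of 12 other settings.

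At lactation day 7 the brighter Ccnd1 probe set was lower than at pregnancy day 14.5, with 179.9, 230 and 262.4 against 419.9, 293.8 and 402.5 (-0.73 ± 0.26, adjusted p = 0.017). This call ended without pregnancy day 14.5 A or C or lactation day 7 A (adjusted p up to 0.0925). The fall at weaning was larger and held in every setting run. The signals were 77.1, 76.5 and 88.2 at involution day 1, against 179.9, 230 and 262.4 at lactation day 7, a difference of -1.46 ± 0.26 (adjusted p = 2.9e-05), or 2.75-fold lower. By involution day 4 they were 125.1, 141 and 119.5, still lower than at lactation day 7 (-0.79 ± 0.26, adjusted p = 0.012, and 0.0665 without lactation day 7 C). Involution day 20 had 127, 150.6 and 231.1 and overlapped with 12-week virgins.

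The dimmer Ccnd1 probe set ranged from 9.1 to 68.4 over the 54 arrays and was called in none of the 9 comparisons. Its time point means correlated with those of the brighter one with r = 0.647 over 18 time points. The 2 probe sets went opposite ways between pregnancy day 14.5 and lactation day 7. The dimmer had 33.7, 48 and 55.1 at lactation day 7, against 26.2, 31.3 and 14.6 at pregnancy day 14.5 (0.97 ± 0.53, limma adjusted p = 0.12). From 12-week virgins to pregnancy day 14.5 the brighter mean rose from 201 to 368, while the dimmer fell from 28.9 to 22.9. Across birth, from pregnancy day 17.5 to lactation day 1, both means rose (203 to 330 and 20.9 to 27.4). After weaning both were lower, and the dimmer had 21.9, 14.4 and 40.3 at involution day 1 (-0.94 ± 0.53 against lactation day 7, adjusted p = 0.2). With array weights the dimmer was called higher at lactation day 7 than at pregnancy day 14.5 (1.13, adjusted p = 0.0409), so the 2 probe sets give no common direction for Ccnd1 there.

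Cyclin D2 was dim throughout. Its single probe set lay between 2.6 and 71.9 and was under the floor of 9.4 in 17 of 54 arrays. The highest mean was that of 12-week virgins, with 71.9, 32 and 37.1, and pregnancy day 3 followed with 26.5, 66.5 and 36.3. At pregnancy day 14.5 the signals were 2.6, 3.8 and 10.1, of which 2 are under the floor, and no array reached the range of the 12-week virgins. With signals under the floor set to 9.4, the difference from 12-week virgins was -2.19 ± 0.48 (adjusted p = 0.0011). Its size is set by the floor and is no measured fold: it was -3.25 with the floor at 1 and -0.95 with the floor at the 40th percentile. With Arl2bp and Glo1 as covariates it was -1.35 (adjusted p = 0.405). Involution day 1 had 5.2, 4.2 and 5.1, all under the floor.

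Cyclin D3 varied less than cyclin D1, between 72.1 and 363.6. It was highest at pregnancy day 3, with 305.8, 354.6 and 341, and the means of pregnancy day 17.5 and the 3 lactation days were all between 264.7 and 281.3. At 12 weeks virgin glands had 229.9, 288.7 and 203.8, against 118, 141.7 and 134.6 at 6 weeks, a difference of 0.86 ± 0.29 (adjusted p = 0.025) with ranges apart. The call ended without 6-week A or C or 12-week A or B (adjusted p up to 0.108), with median scaling (0.64, adjusted p = 0.0745) and with the beta-actin 3' to 5' ratio as a covariate (0.39, adjusted p = 0.461). That ratio, a measure of RNA integrity, averaged 1.99 ± 0.487 in 12-week and 3.75 ± 0.363 in 6-week virgins (SD, n = 3 each). Its part in the difference was not tested beyond this covariate. With the ratio as a covariate, calls over all probe sets in this comparison went from 2571 to 349. A call lost in that setting is therefore not particular to a gene. Ccnd3 was called in no other comparison. Array A of involution day 20 stood at 72.1 beside 231.8 and 226. The same array was also the lowest of its time point for every other tested probe set except that of Cdkn1c.

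**Figure D2:**
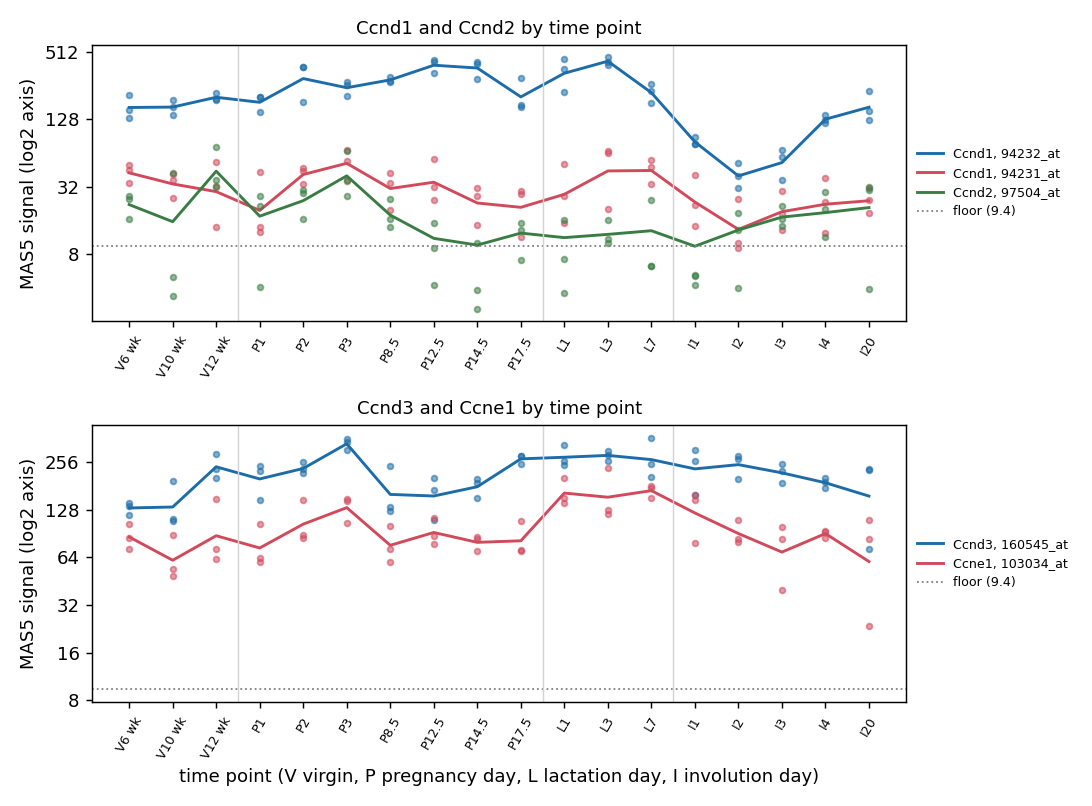
MAS5 signals (vertical axes, log2 scale) of Ccnd1 and Ccnd2 (upper panel) and Ccnd3 and Ccne1 (lower panel) at the 18 time points (horizontal axis); points are single arrays, lines join the geometric means of 3 arrays after the floor of 9.4, and the dotted line is the floor. Ccnd1 drops to between 31 and 88.2 on involution days 1 to 3, and Ccne1 has its 3 highest means on the lactation days.

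Cyclin E1 was highest in lactation. Its 3 highest means were those of lactation days 7, 1 and 3, and their 9 arrays lay between 119.7 and 234.8, with ranges that overlapped among themselves. Lactation day 7 had 181.1, 175.5 and 150.7, against 82.9, 86.4 and 70.2 at pregnancy day 14.5, with ranges apart. The difference was 1.08 ± 0.38 (adjusted p = 0.015), or 2.12-fold. It was lost without pregnancy day 14.5 C (adjusted p = 0.0535), with the beta-actin ratio (0.0614) and with Arl2bp and Glo1 (0.0903).

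In 2 other comparisons Ccne1 was just outside the threshold. Lactation day 1 had 151.1, 201.3 and 141.6, against 69.8, 107.9 and 71.4 at pregnancy day 17.5 (1.00 ± 0.38, adjusted p = 0.051). Involution day 4 had 84.1, 94.4 and 92.8, against 181.1, 175.5 and 150.7 at lactation day 7 (-0.90 ± 0.38, adjusted p = 0.051). In both the ranges did not overlap. Quantile normalization (adjusted p = 0.0361 and 0.0285), 1 probe set per gene (0.049 and 0.0497) and the mice's letters as a replicate block (0.0319 and 0.0323) brought both under the threshold. Median scaling, array weights, the beta-actin ratio and a fit of the 6 arrays alone did so for involution day 4 only. Ccne1 was scattered at involution day 1, at 78.2, 146.8 and 157.6, and was not called against lactation day 7 (-0.47 ± 0.38, adjusted p = 0.4).

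Cdk4, the catalytic partner of the D cyclins, was high at pregnancy days 3 and 17.5, low in lactation and high again at weaning. The 2 probe sets followed each other with r = 0.916 over the 18 time point means. For the brighter the signals were 438.5, 457.9 and 447.5 in 12-week virgins, 819.2, 784.8 and 696.7 at pregnancy day 3, and 632.7, 818.2 and 925.6 at pregnancy day 17.5. At lactation day 1 they were 358.4, 268.4 and 289.7, and at involution day 1, the highest mean of the series, they were 882.3, 831.4 and 800.3. The lactation arrays, all between 268.4 and 424.9, did not reach the lowest signal of pregnancy day 17.5 or of any of involution days 1 to 4. Virgin glands of 6 and 10 weeks were also low, with means of 312 and 259. Pregnancy day 1 was not high, with means under those of 12-week virgins in both probe sets (402 against 448, and 68.1 against 83.5). Pregnancy days 8.5 and 12.5 were under 12-week virgins in the dimmer (68.9 and 81.6) and above them in the brighter (549 and 711).

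The fall into lactation was called in both probe sets. At lactation day 1 against pregnancy day 17.5, the brighter differed by -1.37 ± 0.21 (adjusted p = 7.3e-06), or 2.58-fold. The dimmer had 45, 67 and 54 at lactation day 1, against 127.7, 105.4 and 132.6 at pregnancy day 17.5 (-1.15 ± 0.27, adjusted p = 0.0017). At lactation day 7 against pregnancy day 14.5 the differences were -0.91 ± 0.21 (adjusted p = 0.00044) and -0.84 ± 0.27 (adjusted p = 0.0088). These 4 calls held in every setting run, leaving out each array included.

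Both probe sets rose at weaning. The brighter had 882.3, 831.4 and 800.3 at involution day 1, against 300.3, 349.5 and 424.9 at lactation day 7, a difference of 1.24 ± 0.21 (adjusted p = 1.6e-05), or 2.36-fold. The dimmer had 104.2, 116 and 106.1, against 47.9, 56.9 and 47.2 (1.11 ± 0.27, adjusted p = 0.0018). The ranges were apart in both. At involution day 4 the differences from lactation day 7 were 0.59 ± 0.21 (adjusted p = 0.021) and 0.85 ± 0.27 (adjusted p = 0.01), and the first ended without lactation day 7 A or B or involution day 4 C (adjusted p up to 0.11). By involution day 20, with 184.6, 348.7 and 358.6, Cdk4 was under 12-week virgins in all arrays without passing the test (-0.65 ± 0.21, adjusted p = 0.086). Without array A, the one at 184.6, that difference was -0.34 (adjusted p = 0.626), and without array C it was -0.82 (adjusted p = 0.0431).

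In early pregnancy the rise of Cdk4 was less firm. At pregnancy day 3 the brighter probe set was above 12-week virgins by 0.77 ± 0.21 (adjusted p = 0.03) with ranges apart, while the dimmer, at 137.8, 117.3 and 106.8 against 100.3, 80.2 and 72.5, differed by 0.52 ± 0.27 (adjusted p = 0.31). The call ended without any 1 of the 6 arrays, with adjusted p between 0.0657 and 0.0931, and with Arl2bp and Glo1 (0.193). In virgins the dimmer was higher at 12 weeks than at 6 weeks, with 100.3, 80.2 and 72.5 against 42.7, 47.9 and 50.2 (0.84 ± 0.27, adjusted p = 0.019). That call ended without 6-week A or 12-week A (adjusted p up to 0.0911), with median scaling (0.0632) and with the beta-actin ratio (0.4).

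**Figure D3:**
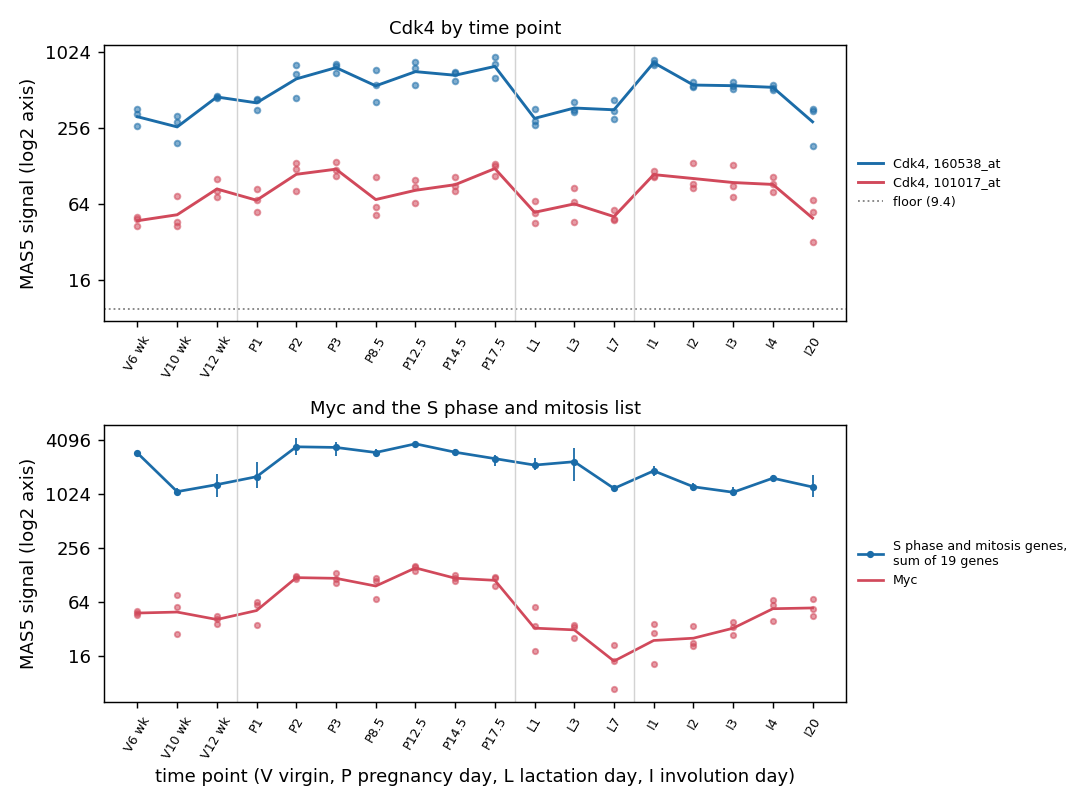
MAS5 signals (log2 axes) of the 2 Cdk4 probe sets (upper panel) and of Myc with the sum over 19 S phase and mitosis genes (lower panel) at the 18 time points; points are arrays, lines are geometric means (for the sum, the mean, with bars from the lowest to the highest array). Both Cdk4 probe sets are low on the 3 lactation days and high at pregnancy day 17.5 and involution day 1, while Myc averages 14.0 at lactation day 7 and 23.8 at involution day 1.

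p21 was low before weaning and high for 4 days after it. For the brighter Cdkn1a probe set the 39 arrays before weaning lay between 6 and 60.5, while the 12 arrays of involution days 1 to 4 lay between 114.7 and 247.8. The signals were 205.3, 247.8 and 204.7 at involution day 1, 206.2, 215.2 and 150.9 at day 2, and 172.5, 162.2 and 213.2 at day 3. At day 4 they were 115.6, 114.7 and 152.8, and at day 20 they were 18.1, 58.8 and 30.1. The days 1 to 3 overlapped with each other, and day 4 overlapped with day 2 and with no other time point.

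The difference of this probe set at involution day 1 from lactation day 7, which had 38.5, 8 and 17.3, was 3.57 ± 0.49 (adjusted p = 2.3e-07), or 11.8-fold on floored signals. The dimmer, whose time point means correlated with those of the brighter with r = 0.901, had 171.7, 212 and 154.2 at involution day 1, against 30.4, 23.6 and 23.3 at lactation day 7. Its difference was 2.80 ± 0.50 (adjusted p = 3.1e-05), or 6.95-fold, with none of these 6 arrays under the floor. At involution day 4 the differences from lactation day 7 were 2.78 ± 0.49 (adjusted p = 1.1e-05) and 2.13 ± 0.50 (adjusted p = 0.00057). All 4 calls held in every setting run. Cdkn1a was called in none of the other 7 comparisons, and at pregnancy day 14.5 it was lower than in 12-week virgins with ranges apart in both probe sets (-1.15 and -1.18, adjusted p = 0.095 for each).

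p27 could not be followed on these arrays. The brighter Cdkn1b probe set was under the floor in 28 of 54 arrays and never passed 21, and the dimmer was under it in 51. The exceptions of the dimmer were 9.9 and 25 at lactation day 7 and 17.4 at involution day 20. The 2 probe sets correlated with r = 0.0957 over the 18 time point means, and neither gives a level of Cdkn1b to compare.

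p57 was high through most of pregnancy, low in lactation and the first days of involution, and higher again from involution day 4. Signals of Cdkn1c were 315, 100.7 and 147.9 in 12-week virgins, 300.8, 317.3 and 521.9 at pregnancy day 3, and 142.8, 167.9 and 162 at pregnancy day 14.5. They were 64.4, 74.5 and 106.5 at pregnancy day 17.5, 38.9, 34.3 and 18.1 at lactation day 1, and 19.9, 15.7 and 12.8 at lactation day 7. Involution days 1, 4 and 20 had 13.3, 12.2 and 18.4, then 63.9, 43.3 and 31.8, then 129.2, 106.7 and 129.9. None of the 21 pregnancy arrays was as low as any lactation array.

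The largest fall among these genes was that of Cdkn1c at lactation day 7 against pregnancy day 14.5, by 3.31 ± 0.33 on the log2 scale (adjusted p = 5.3e-11), or 9.90-fold. Lactation day 1 differed from pregnancy day 17.5 by -1.47 ± 0.33 (adjusted p = 0.00093, and 0.0572 in a fit of the 6 arrays alone). Involution day 1 was not called against lactation day 7 (-0.14 ± 0.33, adjusted p = 0.81), and involution day 4 was higher than lactation day 7 by 1.49 ± 0.33 (adjusted p = 0.00025), with ranges apart. At pregnancy day 3 Cdkn1c was above 12-week virgins by 1.14 ± 0.33 (adjusted p = 0.038). There the ranges overlapped through virgin array A, at 315, and the call ended without 12-week virgin B or C or pregnancy day 3 B or C (adjusted p up to 0.268), without the filter (0.0504), with median scaling (0.0696), in the 6 arrays alone (0.183) and with Arl2bp and Glo1 (0.343).

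**Figure D4:**
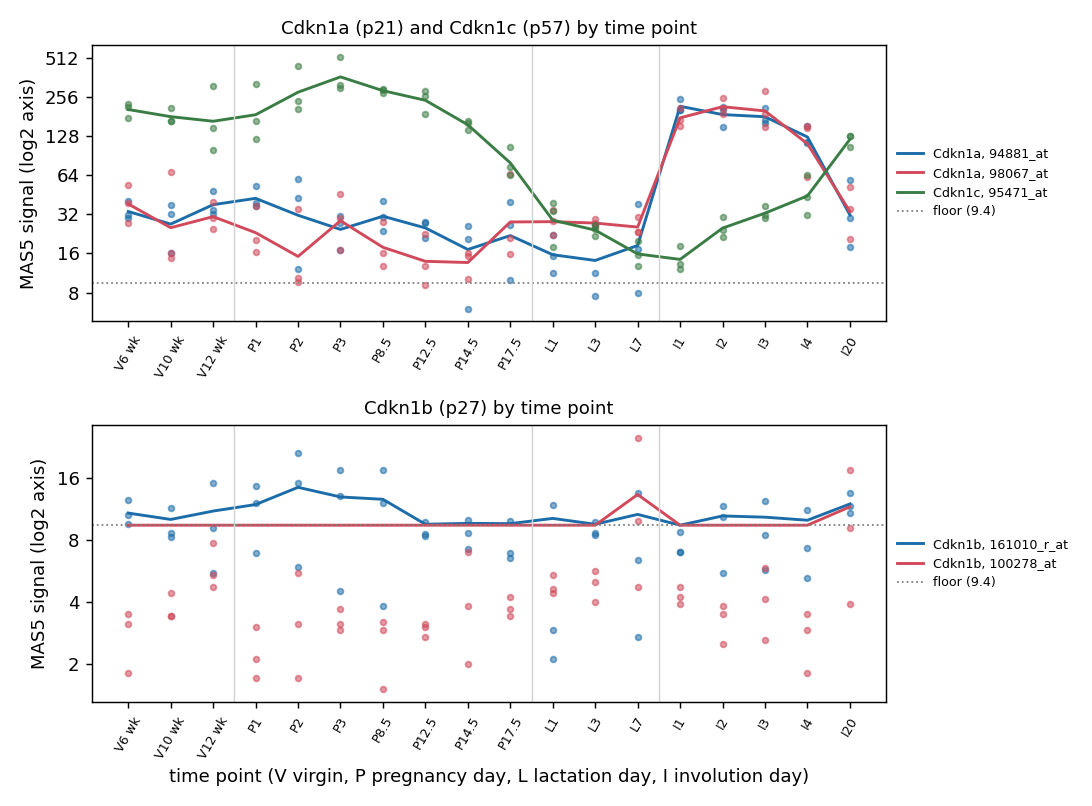
MAS5 signals (vertical axes, log2 scale) of Cdkn1a and Cdkn1c (upper panel) and Cdkn1b (lower panel) at the 18 time points (horizontal axis); points are single arrays, lines join geometric means of 3 arrays after the floor of 9.4 (dotted). Both Cdkn1a probe sets stand above 60 on involution days 1 to 4, Cdkn1c is under 40 on all lactation days, and most Cdkn1b points lie under the floor.

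Markers of several other cell types changed in the same comparisons as these genes. None of the 3 T cell and 4 B cell markers tested was called at lactation day 7 or involution days 1 and 4. Against 12-week virgins, 2 of 3 T cell and 2 of 4 B cell markers were lower at pregnancy day 14.5, as was Ccnd2. Over all probe sets 8.85% were lower there. T cell markers called lower against these virgins were 2 at pregnancy day 3, 1 at day 8.5 and 2 at involution day 20. The part of lymphocytes in Ccnd2 was not tested. In a whole gland, fewer cells of a type and less RNA per cell cannot be told apart. All 6 fibroblast markers were lower at lactation day 7 than at pregnancy day 14.5, as was Cdkn1c, and their summed signal was 1521 to 2169 at lactation day 7, against 9770 to 11213 at pregnancy day 14.5. It was 7276 to 10354 at involution day 4, with 6 of 6 called higher than at lactation day 7. Of the 5 white adipocyte markers, 4 were lower at lactation day 7 than at pregnancy day 14.5 and 5 were higher at involution day 4 than at lactation day 7. No marker of either list was at the floor at these time points. Of the 6 macrophage markers, 5 were lower and 1 higher at lactation day 7 than at pregnancy day 14.5. All 6 were higher at involution day 4 than at lactation day 7. Of the 5 endothelial markers, 3 were lower and 1 higher in the first comparison, and 3 were higher and 1 lower in the second. Over all probe sets, 26.8% were lower in the first and 22.7% higher in the second. The part of these cells in the course of Cdkn1c was not tested.

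Beside Cdkn1a, the summed signal of the 6 macrophage markers was 7594 to 8746 at involution day 1, against 1577 to 1888 at lactation day 7. Most of that sum was Cd14, at 7563 against 1386. Of the 6 markers Cd14 and Cd68 were called higher at involution day 1, and Csf1r, Adgre1, Lyz2 and Mrc1 were not, with Csf1r at 96.8 at involution day 1, against 90.0 at lactation day 7. At involution day 4, where Cdkn1a was lower than at days 1 to 3, all 6 were called higher, with Lyz2 at 1567 against 126. Of the 6 luminal markers 4 were called higher at involution day 1, Krt18, Cldn3, Epcam and Krt8, along with Cdk4. At lactation day 7, 3 were lower and 1 higher than at pregnancy day 14.5. Over all probe sets 14.1% were higher in the first of these comparisons, and 26.8% were lower and 27.1% higher in the second. The summed signal of the 6 milk protein genes was 76690 to 77794 at lactation day 7, against 19818 to 26489 at pregnancy day 14.5, on arrays scaled to the same mean. The part of these cells in Cdkn1a and Cdk4 was not tested.

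**Figure D5:**
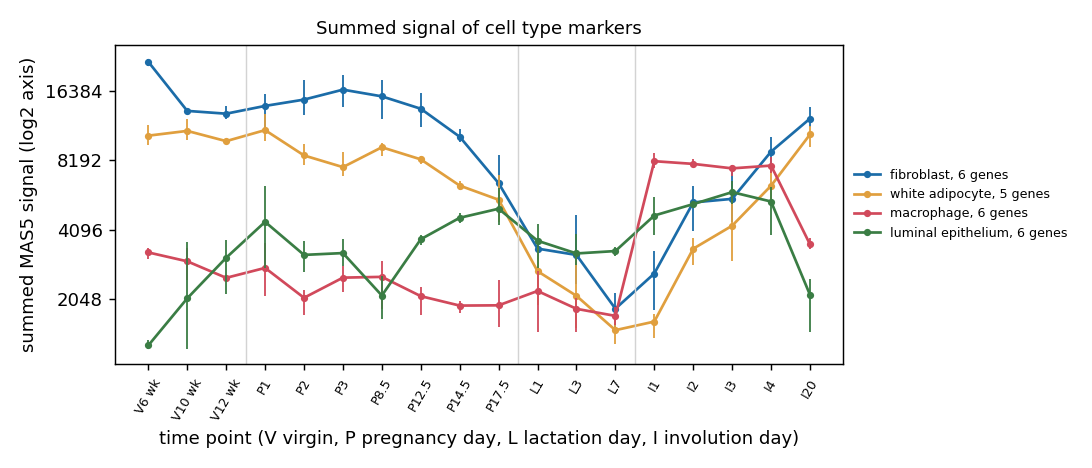
Summed MAS5 signal (vertical axis, log2 scale) of fibroblast, white adipocyte, macrophage and luminal markers at the 18 time points (horizontal axis); points are means of 3 arrays and bars run from the lowest to the highest array. The fibroblast sum is lowest at lactation day 7, between 1521 and 2169, and the macrophage sum lies between 7007 and 8746 on involution days 1 to 4.

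Comparison by comparison, the counts of these genes stood as follows beside those of the whole table. At 12 against 6 weeks 2 of the 10 probe sets were higher and 0 lower, where 17.2% of all probe sets were called higher and 12.5% lower. At pregnancy day 3 against 12-week virgins 2 were higher (background 2.69%) and 0 lower (1.55%). At pregnancy day 8.5 none was called by limma (background 4.61% higher and 6.55% lower), though Ccnd2 had an unadjusted p of 0.00974 and Cdkn1c of 0.0207. At pregnancy day 14.5 1 was higher (8.82%) and 1 lower (8.85%).

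Across birth, lactation day 1 against pregnancy day 17.5, 1 was higher (10.1%) and 3 were lower (13.2%). At lactation day 7 against pregnancy day 14.5 1 was higher (27.1%) and 4 were lower (26.8%). At involution day 1 against lactation day 7 4 were higher (14.1%) and 1 was lower (11.3%), and at involution day 4 5 were higher (22.7%) and 1 was lower (21.7%). At involution day 20 against 12-week virgins none was called by limma (1.27% higher and 1.37% lower). Before adjustment 4 had a p under 0.05, both Cdk4 probe sets, Ccnd3 and Ccnd2, all lower. The share of all probe sets under that unadjusted threshold was not counted. Without array A of involution day 20 the differences shrank to -0.34 and -0.45 for Cdk4, -0.06 for Ccnd3 and -0.51 for Ccnd2. The median log2 difference of the 10 probe sets was 0.56 at involution day 4 against lactation day 7, beside -0.03 over all probe sets. At involution day 20 against 12-week virgins it was -0.50, beside -0.07, and without array A of involution day 20 it was -0.10.

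Among other parts of the pathway, Myc, which drives Cdk4 transcription in cultured cells, was higher than in 12-week virgins at all 3 pregnancy days compared. It had 115.9, 105.4 and 134.4 at pregnancy day 3, against 45.1, 36.2 and 41.9 in 12-week virgins (1.53, adjusted p = 0.0061). At lactation day 7 it had 21, 14 and 6.8, against 127.2, 109.4 and 118.9 at pregnancy day 14.5 (-3.08, adjusted p = 8.7e-10). Across birth, where both Cdk4 probe sets were called lower, Myc was lower at lactation day 1 than at pregnancy day 17.5 (-1.77, limma adjusted p = 0.00015). At involution day 1, where both Cdk4 probe sets were called higher, Myc had 28.9, 13 and 36.1 and was not called against lactation day 7. At involution day 4, where both were also called higher, Myc was higher than at lactation day 7 (1.94, limma adjusted p = 9.6e-06). The part of Myc in Cdk4 was not tested. Of the 9 upstream regulators tested, 2 rose at involution day 1, where 14.1% of all probe sets were called higher. They were Cebpd, a transcription factor of early involution, at 1453 against 250, and Foxo4.

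Of 6 RB, E2F and DP genes tested, Rb1 alone was called at involution day 1 (14.1% higher and 11.3% lower over all probe sets). It was higher, with 145.8, 138.5 and 147.4 against 17.3, 16.2 and 6.8 at lactation day 7 (3.38 on floored signals, limma adjusted p = 4.3e-11). At lactation day 7 against pregnancy day 14.5, 2 of the 6 were higher (27.1% over all probe sets) and 2 lower (26.8%). Their median log2 difference was 0.15. Tfdp1, an E2F partner, was 1 of the lower (-1.58, adjusted p = 3.4e-05). Of 4 INK4 inhibitors, 2 were lower at lactation day 7 than at pregnancy day 14.5 (26.8% over all probe sets). They were Cdkn2b (p15, -0.93, limma adjusted p = 0.011) and Cdkn2c (p18). Cdkn2c had a mean of 182 against 456 at pregnancy day 14.5 (-1.33, adjusted p = 6.1e-06), and was higher at involution day 4 than at lactation day 7 (0.64, adjusted p = 0.021). Of 8 other cyclins, CDKs and partners, 1 was higher (27.1%) and 1 lower (26.8%) at lactation day 7 than at pregnancy day 14.5. Cdc25a, the phosphatase that activates CDK2, was higher there, at 221 against 80.7 (1.45, adjusted p = 3.2e-05), as was Ccne1. Cks1b was lower, at 233 against 408 (-0.81, limma adjusted p = 0.0017). Cdc25a was lower at involution day 1 than at lactation day 7 (-0.79, adjusted p = 0.031). Cyclins G2 and G1 were higher at involution day 1 than at lactation day 7 (Ccng2 1.34, adjusted p = 0.0012, and Ccng1 0.78, adjusted p = 0.014).

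Of the 9 p53 targets tested beside Cdkn1a, 5 were higher at involution day 1 than at lactation day 7 and 0 were lower. Over all probe sets 14.1% were higher and 11.3% lower. The median log2 difference of the targets was 0.53, beside -0.02 over all probe sets. Mdm2 (0.23, limma adjusted p = 0.57), Perp, Sesn1 and Zmat3 were not called there. Gadd45a had the largest change, with a mean of 110 against 15.5 (2.83, adjusted p = 9.7e-09), followed by Fas (1.22, adjusted p = 0.0033) and Btg2 (0.95, adjusted p = 0.001). At involution day 4 3 were higher (22.7% over all probe sets) and 1, Perp, was lower (21.7%). Gadd45a, unlike Cdkn1a, was also lower at lactation day 7 than at pregnancy day 14.5 (-2.77, adjusted p = 7.3e-09), and no test of a difference between the genes was made.

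Of 19 S phase and mitosis genes, 10 were higher at pregnancy day 3 than in 12-week virgins (2.69% over all probe sets). At days 8.5 and 14.5 of pregnancy 9 (4.61%) and 10 (8.82%) were higher, and 0 were lower on any of these days. At lactation day 7, 13 were lower (26.8%) and 0 higher (27.1%) than at pregnancy day 14.5. Their summed signal was 1109 to 1265 at lactation day 7, against 2729 to 3248 at pregnancy day 14.5. At involution day 1 Cdk4 and Cdkn1a were both up and Ccnd1 was down. There 5 of the 19 were higher (14.1% over all probe sets) and 2 lower (11.3%) than at lactation day 7. Stmn1, which regulates microtubules, had the largest change there (2.93, adjusted p = 1.2e-09), and Mki67, a marker of cycling cells, was lower, at 15.2 against 76.6 (-2.33, adjusted p = 7.2e-05). Between 12 and 6 weeks, where Ccnd3 and the dimmer Cdk4 probe set were higher, 10 of the 19 were lower (12.5%) and 0 higher (17.2%). The beta-actin ratio given above and the fibroblast markers, 4 of 6 lower and 0 higher, moved in the same comparison, and their part was not tested for this list.

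The genes with the time courses most like each member were found over the 18 time point means, all from the same 54 arrays, among 6441 genes, with the brighter probe set where there were 2. For Cdkn1a they were Scarb2 (r = 0.960), Cebpd (0.949) and Basp1 (0.941), and for Cdkn1c they were Thy1 (0.969), Rcn1 (0.969) and Col6a2 (0.964). Those of Cdk4 were Ppp1r14b (0.931), Pdlim1 (0.923) and Cldn3 (0.863), and those of Ccnd1 were Psat1 (0.903), Nfyc (0.899) and 1810009A15Rik (0.878). Ccne1 was closest to Llgl1 (0.930), Ccnd3 to Pgls (0.939) and Ccnd2 to Adam15 (0.919). None of the 3 closest genes of any member was another member.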

How the data were processed

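The values are signal intensities that the authors computed with MAS5, per the submitters' processing notes; its version and the genome build are not given in the sources used here. These deposited intensities are linear, with a 2% trimmed mean of 100.05 to 100.07 in each array. Between 20.5% and 29.7% of an array's signals were under the floor. Precision is limited by the 3 arrays of a time point and, for dim probe sets, by background.

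Here, any signal below 9.4 (the table's 25th percentile) was raised to 9.4 before log2. Tests used 8640 probe sets, after dropping 66 controls and those without a time point whose 3 arrays all exceeded 22.8, the 40th percentile. Of these, 7770 carry exactly 1 symbol in the platform annotation. One limma model (version 3.58.1, R version 4.3.3) held a mean for each time point over the 54 arrays, with eBayes and a trend of the variance on intensity, which left 36 residual degrees of freedom and added 6.8. Two-sided p-values were adjusted by Benjamini and Hochberg's method over all 8640, and a probe set was called under 0.05. Tables were made with pandas 2.3.3 and numpy 2.4.6 and figures with matplotlib 3.10.9, under Python 3.11.15. On simulated data for involution day 1 against lactation day 7 (8640 probe sets), 44% of 2-fold and 96% of 4-fold changes were recovered, and 4.11% of calls were false.

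The members, lists and tests were chosen with earlier results of these data known. All member probe sets are described. For each pathway list, with the brightest probe set standing for a gene, the rule names up to 3 called genes with the largest change in a comparison. Values of Myc at involution day 1, the name of Perp and the p53 targets not called at involution day 1 fall outside it. They were chosen after their values were seen. Likeness names up to 3 genes with 1 symbol by Pearson's r. Of the basal markers 4 of 7 were tested, of T cell markers 3 of 6, of B cell markers 4 of 5 and of endothelial markers 5 of 5, and at involution day 1 against lactation day 7 they gave 2, 0, 0 and 0 calls.

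The letters A, B and C name mice and pair none. Deviations from the time point means correlated at 0.012 on average in 459 same-letter pairs, 66 of them over 0.1, and at -0.0061 in 918 other pairs. Alternatives were 2 other floors, quantile and median scaling, no filter, 1 probe set per gene, no variance trend, array weights, the letter as a replicate block, the beta-actin ratio or Arl2bp and Glo1 as covariates, a fit of the 6 arrays compared, and each array left out.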

Additional observations from a re-analysis of the deposited data

How the results depend on the processing

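Of 90 log2 differences (10 probe sets in 9 comparisons), 26 were called. Of these, 14 were called in every setting run and 12 were lost in at least 1, and none of the 26 changed sign. The 14 are all 5 calls at involution day 1, both Cdk4 calls across birth, both Cdk4 calls and the Cdkn1c call at lactation day 7, and the Cdkn1a, Cdkn1c and dimmer Cdk4 calls at involution day 4. Of the 64 others, 25 changed sign in some setting. Counts of called member probe sets moved as follows, and the cause was not tested. At 12 against 6 weeks the 2 calls became 0 with median scaling, 0 with the beta-actin ratio, 1 with 1 probe set per gene and 4 with array weights, and 0 to 2 without single arrays (0 without 6-week A or 12-week A). At pregnancy day 3 the 2 became 1 with median scaling, 1 without the filter, 1 in the 6 arrays alone and 0 with Arl2bp and Glo1, and 0 to 1 without single arrays (0 without 12-week virgin B or C or pregnancy day 3 B or C). At pregnancy day 8.5 the 0 became 1 with the floor at the 40th percentile, 2 with median scaling and 3 with array weights, and 0 to 2 without single arrays (1 without 12-week virgin A, 2 without pregnancy day 8.5 B). At pregnancy day 14.5 the 2 became 5 with array weights, 4 in the 6 arrays alone and 0 with Arl2bp and Glo1, and 1 to 2 without single arrays. Across birth the 4 became 2 in the 6 arrays alone and 3 to 4 without single arrays. At lactation day 7 the 5 became 3 to 5 without single arrays (3 without pregnancy day 14.5 C). At involution day 1 the 5 became 3 with 1 probe set per gene, by construction, since only 7 member probe sets then remain. At involution day 20 the 0 became 1 without involution day 20 C (the brighter Cdk4 probe set, adjusted p = 0.0431, and 0.626 without involution day 20 A). At involution day 4 the 6 became 5 to 6 without single arrays, and the 10 calls of the F test 9 to 10. The letter as a replicate block left 98 of 100 values (the 90 differences and 10 F tests) on their side of the threshold and brought Ccne1 under it across birth (5 called in place of 4, adjusted p = 0.0319) and at involution day 4 (7 in place of 6, adjusted p = 0.0323). The letters share only a number.

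Median scaling moved the median of all probe sets by over 0.1: from 0.17 to -0.03 at 12 against 6 weeks, where higher calls went from 57.9% to 34.3% of all calls, from -0.13 to 0.12 at pregnancy day 8.5 (41.3% to 80.2%), from -0.09 to 0.09 at day 14.5 (49.9% to 72.0%), from 0.02 to -0.14 at lactation day 7 (50.3% to 41.9%) and from -0.07 to 0.07 at involution day 20 (48.3% to 65.7%). At pregnancy day 3 the share went from 63.4% to 47.0%. Ccnd2, Cdkn1b and the Cdkn1a signals before weaning are limited by background. Low signals also limit the log2 differences of some list genes. At lactation day 7 Rb1 and Myc each include a signal under the floor, and the means of Fas and Cdkn2b were 11.5.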
